A study of Homo sapiens with 6 samples.

Results

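The cytosolic and mitochondrial heat shock chaperones are the HSP70, HSP90, small heat shock, J-domain and BAG proteins, together with the mitochondrial chaperonin and the transcription factor HSF1. They were taken by gene symbol, leaving out named chaperones of the endoplasmic reticulum such as HSPA5. J-domain proteins of that compartment that were not named, such as DNAJC14, stayed in. On the array, 77 of the 18404 genes with a single symbol met that rule. Of these, 66 were genes and 11 were pseudogenes, 9 of them copies of HSP90 genes. HSF2, which belongs to the same rule, was not analysed here, and HSPA1A and HSPA1B share 2 array rows that carry both symbols, so they are not among the 77 and are described apart.

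The cells were BE(2)-C, an established human neuroblastoma line and therefore a single tumour line. In 3 samples they had received 5 µM BIX01294 for 24 h, an inhibitor of the H3K9 methyltransferases encoded by EHMT2 and EHMT1, and in 3 samples 0.05% DMSO for 24 h. The series describes the 3 samples per treatment as independent and used 1 Affymetrix array for each, and whether the treated samples also held DMSO is not stated. The question was which transcripts differ between the treatments. Values are on the log2 scale, a difference is BIX01294 minus DMSO, and an adjusted p comes from limma over all 18404 genes with a threshold of 0.05.

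Chaperones of this kind bind unfolded stretches of other proteins and keep them from aggregating. HSP70 works in an ATP cycle, in which J-domain proteins bring the client and start ATP hydrolysis. HSP110 and most BAG proteins then release ADP so that the client can leave. HSF1 is held inactive by chaperones and, when unfolded protein draws these away, binds heat shock elements and raises transcription of inducible chaperone genes. Cancer cells often depend on this system.

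Markers of neuroblastoma identity were clearly measured in both groups. The mean level of the 6 marker genes (HAND2, GATA3, ISL1, TH, DBH and MYCN) was 11.26 to 11.28 over the DMSO arrays and 11.26 to 11.31 over the BIX01294 arrays. Of these, GATA3 fell by 0.23 (0.056 SE, adjusted p 0.0190), ISL1 rose by 0.34 ± 0.056 (SE, adjusted p 0.00372) and the other 4 did not pass. Among 8 markers of a mesenchymal or Schwann cell-like state that such cultures can hold, 3 rose (VIM, CD44 and S100B) and none fell. This was 37.5% higher, where 12.9% of all genes were higher and 10.7% lower. FN1, YAP1, PRRX1, SOX10 and COL1A1 differed by -0.09 to 0.06, and the median difference of the 8 was 0.03. The mean level of the 8 was 7.13 to 7.20 in DMSO and 7.34 to 7.43 in BIX01294. The part of this rise in the chaperone results was not tested. Within a group, arrays differed from each other by a median of 0.068 to 0.101 per gene, and no pair of arrays held identical values. In bulk RNA, fewer cells with a transcript and less of it per cell cannot be told apart.

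After BIX01294, 20 of the 77 members rose, 4 fell and 53 did not pass the test. Over all genes 12.9% were called higher and 10.7% lower, 23.6% in either direction, against 26.0% and 5.19% of the members. The median difference of the members was 0.14, against -0.01 over all genes. The rises included HSPH1 and HSPA4L among HSP110 proteins, DNAJA1 and DNAJB1 among J-domain proteins, and BAG2 and BAG3 among BAG proteins. All 4 falls were in class C of the J-domain proteins, which holds 24 of the 77 members: DNAJC28, DNAJC12, DNAJC22 and DNAJC18. The groups did not overlap in 42 members, 33 of them higher and 9 lower in BIX01294, where 40.1% of all genes had groups without overlap. The changes were mostly under 2-fold, and HSPH1 was the only gene of the 20 that rose to reach 2-fold. Over all genes the split of calls moved with the scaling, from 54.7% higher as deposited to 66.0% after centring each array on its median and 50.5% after quantile normalization. For the members it was 83.3%, 85.2% and 84.0%.

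**Figure D1:**
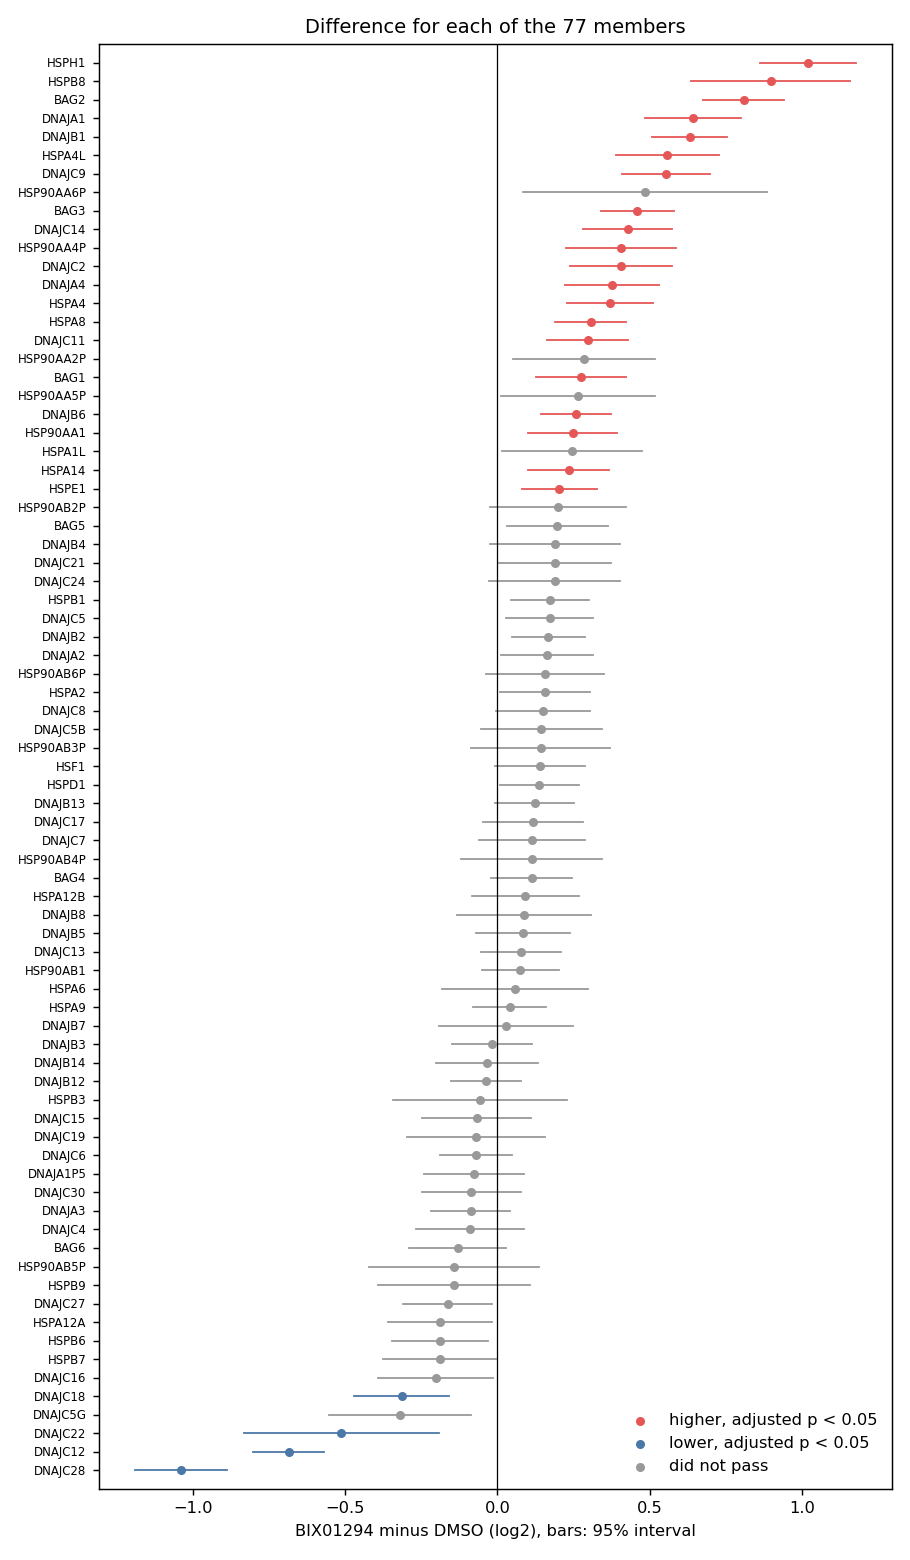
Difference between BIX01294 and DMSO (log2, x axis) for each of the 77 members (y axis, sorted), with points for the estimate and bars for the 95% interval of limma, 3 arrays per group. The 20 members that rose are red, the 4 that fell are blue, and the 53 that did not pass are grey; HSPH1 is at the top with 1.02 and DNAJC28 at the bottom.

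The share of genes called differed with their level. Of all genes 37.3% were called above the median level, 15.1% between the lower quartile and the median, and 4.80% below the lower quartile. Above the median 22.5% of all genes were higher and 14.8% lower, while 18 of the 50 members there were higher and 2 lower. Between the lower quartile and the median 2 of 12 members were higher and 1 lower. A total of 15 members had a mean level under the lower quartile of all genes (5.99), and of these 1 fell, none rose and 14 did not pass. In a separate fit of genes above the median level alone, which adjusts over fewer genes, 31.0% of those genes were higher and 20.6% lower, 51.6% in all. In that fit 27 of the 50 members above the median level were higher and 3 lower. The part of level in the members' count was not tested.

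**Figure D2:**
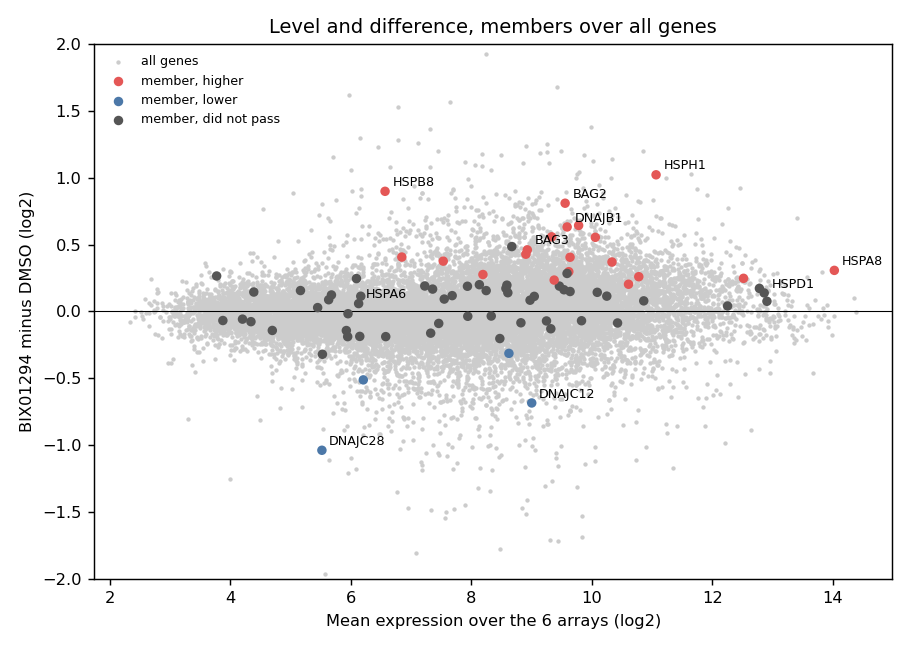
Mean level over the 6 arrays (log2, x axis) against the difference between BIX01294 and DMSO (log2, y axis), with all genes in grey and the 77 members coloured by call. Most members called higher lie to the right of 8 on the level axis, DNAJC28 is a dim member that fell, and 11 genes with differences beyond the plotted range are not drawn.

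HSP110 proteins are nucleotide exchange factors that recharge HSP70 and hold clients themselves, and all 3 members of this group rose. HSPH1, the inducible HSP110, measured 10.55, 10.67 and 10.45 in the DMSO arrays and 11.56, 11.54 and 11.63 in the BIX01294 arrays. The lowest treated array lay well above the highest control, and the means of 10.56 ± 0.11 and 11.58 ± 0.04 (SD, n = 3 per group) differed 2.03-fold (difference 1.02 ± 0.069 SE, adjusted p 7.00e-05). HSPA4L, also known for its part in the testis, measured 9.15, 9.09 and 8.93 in DMSO and 9.63, 9.53 and 9.67 in BIX01294. Its groups were likewise apart, with a difference of 0.56 ± 0.074 (SE, adjusted p 0.00136). HSPA4, the constitutive relative, measured 10.17, 10.23 and 10.05 in DMSO and 10.51, 10.51 and 10.54 in BIX01294, a difference of 0.37 ± 0.062 (SE, adjusted p 0.00387).

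The HSP70 proteins themselves split by gene. HSPA8, the constitutive cytosolic HSP70, measured 13.87, 13.88 and 13.86 in DMSO and 14.18, 14.15 and 14.21 in BIX01294. This was a rise of 1.24-fold with very little spread in either group (difference 0.31 ± 0.050 SE, adjusted p 0.00357). It is the form that folds newly made proteins in resting cells. HSPA14, an HSP70 of the ribosome-associated complex, rose by 0.23 ± 0.058 (SE, adjusted p 0.0206), and its partner on the ribosome, the J-domain protein DNAJC2, rose by 0.40 ± 0.073 (SE, adjusted p 0.00537). HSPA14 lost its call without BIX01294 replicate 1 (adjusted p 0.0580) or replicate 3 (adjusted p 0.0743) and with the replicate number as a block (adjusted p 0.0514).

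HSPA6 is the HSP70 gene that is nearly silent without stress and rises strongly with heat. It measured 5.94, 6.15 and 6.22 in DMSO and 5.96, 6.30 and 6.21 in BIX01294. The groups overlapped, the difference was 0.06 ± 0.104 (SE) with a 95% interval of -0.18 to 0.30, and the adjusted p was 0.749. HSPA1L, a relative expressed mainly in testis, differed by 0.25 ± 0.101 (SE, adjusted p 0.123), but passed without DMSO replicate 2 (adjusted p 0.0411) and with the replicate number as a block (adjusted p 0.0446). Across the HSP70 and HSP110 list, 5 of 11 measured members rose (45.5%) and none fell, with a median difference of 0.23. Over all genes 12.9% were higher and 10.7% lower. Above the median level 22.5% of all genes were higher and 14.8% lower, and the median level of this list was 9.33. The 5 include HSPH1, HSPA4L and HSPA4 of the HSP110 group.

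HSPA1A and HSPA1B encode nearly the same protein, the major heat-inducible HSP70, and their signals on the array were not separated. The first of the 2 rows that carry both symbols measured 9.86, 9.78 and 9.64 in DMSO and 11.30, 11.02 and 11.08 in BIX01294. It rose 2.59-fold, more than any of the 77 members, in the limma fit that keeps rows with several symbols (difference 1.37 ± 0.090 SE, adjusted p 0.000101). In the second row the values were 8.79, 8.69 and 8.61 in DMSO and 9.51, 9.67 and 9.53 in BIX01294, a rise of 1.83-fold (difference 0.87 ± 0.070 SE, adjusted p 0.000228). Both rows had groups far apart, with sizes that differed from each other. A row shared by HSPA6 and HSPA7 differed by 0.0048 ± 0.162 (SE, adjusted p 0.989).

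The members' promoters were searched for the element that HSF1 binds. A heat shock element of 3 units, GAANNTTCNNGAA or its reverse complement TTCNNGAANNTTC, was searched on both strands from 250 bases before to 50 after each annotated start in RefSeq's GRCh38.p14 table, which held windows for 59 of the 77 members. It was found in 4 of these 59 windows (6.78%) and in 133 of 27305 windows of all genes (0.487%). Among members that rose, 3 of 18 windows held it (DNAJA1, DNAJB6 and HSPA8), and among those that did not pass 1 of 38 did (HSPA6). The windows of HSPH1, DNAJB1 and BAG3 held no match to these letters, and neither did those of HSPA1A and HSPA1B, which are not among the 59. The shorter motif of 2 units, GAANNTTC or TTCNNGAA, was in 22.0% of the members' windows and in 13.7% of all windows, a motif added after seeing the data that is contained in the longer one. By call, the shorter motif was in 5 of 18 windows of members that rose (27.8%) and 8 of 38 of those that did not pass (21.1%). A match describes letters and not a bound site.

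The 250 bases before the start are shown for the 3 members with a match there and for HSPH1, the member with the largest rise, with matches in capitals. HSPA8 (chr11:123062137-123062386, minus strand) holds 2 matches, beginning 230 and 55 bases before the start. DNAJB6 (chr7:157336754-157337003, plus strand) has its match 131 bases before the start, and HSPA6 (chr1:161524290-161524539, plus strand) 74 bases before. HSPH1 (chr13:31162389-31162638, minus strand) has none.
HSPA8: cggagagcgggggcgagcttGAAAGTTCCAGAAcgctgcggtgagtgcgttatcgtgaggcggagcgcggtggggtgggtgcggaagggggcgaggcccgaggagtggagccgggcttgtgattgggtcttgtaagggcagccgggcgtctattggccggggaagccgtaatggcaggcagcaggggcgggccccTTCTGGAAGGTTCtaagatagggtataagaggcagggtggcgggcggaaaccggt
DNAJB6: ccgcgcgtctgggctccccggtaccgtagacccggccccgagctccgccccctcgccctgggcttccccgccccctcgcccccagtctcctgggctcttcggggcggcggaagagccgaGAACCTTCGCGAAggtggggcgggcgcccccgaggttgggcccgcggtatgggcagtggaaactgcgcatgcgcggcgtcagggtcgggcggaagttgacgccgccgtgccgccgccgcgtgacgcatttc
HSPA6: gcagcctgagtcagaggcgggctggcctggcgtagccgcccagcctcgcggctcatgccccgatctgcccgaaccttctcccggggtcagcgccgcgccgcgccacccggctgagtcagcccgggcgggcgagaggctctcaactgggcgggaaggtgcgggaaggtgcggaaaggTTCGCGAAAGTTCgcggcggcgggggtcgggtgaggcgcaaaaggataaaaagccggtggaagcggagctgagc
HSPH1: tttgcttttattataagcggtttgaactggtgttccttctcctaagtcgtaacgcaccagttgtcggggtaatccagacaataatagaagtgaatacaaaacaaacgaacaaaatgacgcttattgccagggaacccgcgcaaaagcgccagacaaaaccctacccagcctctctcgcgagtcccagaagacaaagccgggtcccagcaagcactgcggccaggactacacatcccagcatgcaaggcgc
HSPA8 and HSPA6 both carry the element close to the start, and the first rose while the second did not pass the test.

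HSP90 proteins mature kinases and steroid receptors, and HSP90AA1 is the inducible form while HSP90AB1 is constitutive. HSP90AA1 measured 12.39, 12.38 and 12.41 in DMSO and 12.58, 12.59 and 12.75 in BIX01294. All treated arrays were above all controls, replicate 3 most, and the difference was 0.25 ± 0.064 (SE, adjusted p 0.0246). That call was lost without BIX01294 replicate 3 (difference 0.19, adjusted p 0.0740), without DMSO replicate 1 (adjusted p 0.0715) or replicate 2 (adjusted p 0.0750), and after quantile normalization (difference 0.19, adjusted p 0.0913). HSP90AB1 had a difference of 0.08 ± 0.055 (SE), a 95% interval of -0.05 to 0.20 and an adjusted p of 0.385. Of the 9 HSP90 pseudogenes, 1 rose, HSP90AA4P (difference 0.41 ± 0.079 SE, adjusted p 0.00752), and 8 of 9 differences were above 0. Their rows may pick up transcripts of the parent genes, so their own expression is uncertain.

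Co-chaperones that serve HSP90 and HSP70 but lie outside the symbol rule were given from a fixed list. Of 10 measured, all above the median level of genes, 5 rose and none fell, with a median difference of 0.18. Of all genes above that level 22.5% were higher and 14.8% lower. CHORDC1, an HSP90 partner that is itself heat-inducible, rose by 0.79 ± 0.069 (SE), the cyclophilin PPID by 0.59 ± 0.087 (SE) and the immunophilin FKBP4 by 0.45 ± 0.064 (SE), with adjusted p-values of 0.000227, 0.00225 and 0.00198 in limma. The chaperonin TRiC and its helper prefoldin fold actin and tubulin. In their list, also above the median level, 5 of 14 rose and none fell, with a median of 0.15, and VBP1, CCT2 and CCT6A had the largest differences (0.41, 0.38 and 0.32).

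J-domain proteins of classes A and B are the general partners of HSP70. DNAJB1, the inducible class B protein, measured 9.25, 9.32 and 9.25 in DMSO and 9.86, 9.93 and 9.93 in BIX01294. The lowest treated array lay far above the highest control, and DNAJB1 rose 1.55-fold (difference 0.63 ± 0.054 SE, adjusted p 0.000210). DNAJA1, the main class A protein of the cytosol, measured 9.46, 9.51 and 9.41 in DMSO and 10.18, 9.98 and 10.15 in BIX01294. It rose 1.56-fold, with BIX01294 replicate 2 lowest of the treated arrays (difference 0.64 ± 0.068 SE, adjusted p 0.000523). DNAJA4, a class A protein linked to sterol metabolism, had means of 7.35 ± 0.10 in DMSO and 7.72 ± 0.06 in BIX01294 (SD, n = 3 per group), a rise with an adjusted p of 0.00524.

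DNAJB6 suppresses aggregation of polyglutamine proteins and has 2 rows on the array that disagree. The row used measured 10.65, 10.65 and 10.66 in DMSO and 10.92, 10.88 and 10.92 in BIX01294, a difference of 0.26 ± 0.050 (SE, adjusted p 0.00721). The dimmer row differed by -0.02 (adjusted p 0.935 in the fit of all rows), and with the mean of both rows the difference was 0.12 and the call was lost (adjusted p 0.173). Leaving out the pseudogenes, 2 of 4 members of class A and 2 of 10 of class B were called higher, without a fall in either class. DNAJB6 is 1 of the 2 in class B. By comparison, 12.9% of all genes were higher and 10.7% lower, and above the median level 22.5% and 14.8%. DNAJB2, a neuronal J-domain protein, missed the threshold narrowly (difference 0.17 ± 0.052 SE, adjusted p 0.0524).

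Class C holds J-domain proteins with specialised clients, and here 4 of 24 rose, 4 fell and 16 did not pass, with a median of 0.01. The shares were 16.7% higher and 16.7% lower, near the 12.9% and 10.7% of all genes. DNAJC9, a chaperone of histones H3 and H4, measured 9.78, 9.87 and 9.69 in DMSO and 10.38, 10.31 and 10.31 in BIX01294. It rose 1.47-fold with no overlap (difference 0.55 ± 0.063 SE, adjusted p 0.000696). DNAJC14, which assists export of receptors from the endoplasmic reticulum, had means of 8.69 ± 0.10 in DMSO and 9.12 ± 0.02 in BIX01294 (SD, n = 3 per group), a rise with an adjusted p of 0.00233. The class C members that rose were DNAJC9, DNAJC14, DNAJC2 and the mitochondrial DNAJC11.

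DNAJC12 is the co-chaperone of the aromatic amino acid hydroxylases, tyrosine hydroxylase among them. It measured 9.36, 9.36 and 9.32 in DMSO and 8.65, 8.69 and 8.64 in BIX01294. The spread within each group was tiny beside the gap, and DNAJC12 fell 1.61-fold (difference -0.68 ± 0.051 SE, adjusted p 0.000107). TH, which encodes tyrosine hydroxylase, differed by 0.05 ± 0.058 (SE, adjusted p 0.635). DNAJC18 measured 8.88, 8.75 and 8.71 in DMSO and 8.40, 8.46 and 8.54 in BIX01294, a difference of -0.31 ± 0.068 (SE, adjusted p 0.0119). DNAJC22 went from 6.33, 6.54 and 6.52 to 5.65, 5.94 and 6.26, with a wide treated group (difference -0.51 ± 0.140 SE, adjusted p 0.0311). Its call was lost without DMSO replicate 2 or 3 (adjusted p 0.0865 and 0.0946) and without BIX01294 replicate 1 or 2 (adjusted p 0.0621 and 0.0711), and it lies near the lower quartile of levels.

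**Figure D3:**
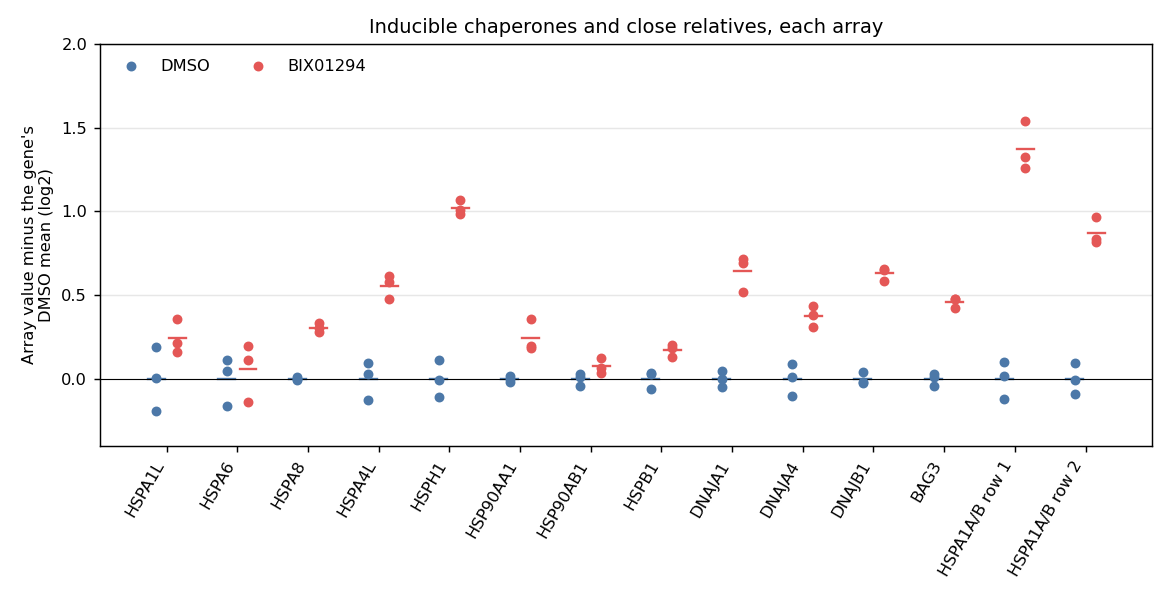
Each array's value minus the gene's DMSO mean (log2, y axis) for the 12 measured members of the list of inducible chaperones and close relatives, and for the 2 rows shared by HSPA1A and HSPA1B (x axis), with DMSO in blue, BIX01294 in red and a bar at each group's mean. The red points of HSPH1 lie near 1.02, those of the first shared row near 1.37, and those of HSPA6 among the blue ones.

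In a fixed list of inducible cytosolic and nuclear chaperones and close relatives, 8 of 12 measured members rose and none fell. The share called higher was 66.7%, where 12.9% of all genes were higher and 10.7% lower. Above the median level 22.5% of all genes were higher and 14.8% lower, and the median level of this list was 9.69. The inducible list, like the other fixed lists, was chosen with earlier results of these data known. The list also holds the constitutive HSPA8 and HSP90AB1 and the testis gene HSPA1L, of which HSPA8 rose. Of the other 9 members 7 rose, a count added after seeing the data. All 12 differences were above 0 and their median was 0.34, although HSPA6 was below 0 without DMSO replicate 1 or without BIX01294 replicate 2. The 4 that did not pass were HSPA1L, HSPA6, HSP90AB1 and HSPB1. HSF1, the factor that controls such genes, measured 8.63, 8.50 and 8.48 in DMSO and 8.68, 8.74 and 8.61 in BIX01294. The groups overlapped, and the difference of 0.14 ± 0.064 (SE) did not pass (adjusted p 0.167). Its transcript level does not report HSF1 activity, which is set on the protein.

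BAG proteins bind HSP70 through a shared domain, and 3 of the 6 rose while none fell. All 6 lay above the median level, where 22.5% of all genes were higher and 14.8% lower. BAG2, which inhibits the ubiquitin ligase CHIP that works with HSP70, measured 9.20, 9.18 and 9.07 in DMSO and 9.98, 9.96 and 9.95 in BIX01294. It rose 1.75-fold, with the treated arrays nearly identical (difference 0.81 ± 0.058 SE, adjusted p 9.04e-05). BAG3, an inducible BAG protein of selective autophagy, measured 8.71, 8.66 and 8.73 in DMSO and 9.18, 9.18 and 9.12 in BIX01294, a difference of 0.46 ± 0.053 (SE, adjusted p 0.000716). BAG1 rose by 0.28 ± 0.064 (SE, adjusted p 0.0163) and lost its call without BIX01294 replicate 1 (adjusted p 0.0538) or replicate 3 (adjusted p 0.0553). BAG4, BAG5 and BAG6 differed by 0.11, 0.20 and -0.13 and did not pass (adjusted p 0.210, 0.0896 and 0.231).

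Small heat shock proteins hold unfolded clients without ATP. Of the 6 measured, 1 rose (16.7%) and none fell, where 12.9% of all genes were higher and 10.7% lower. Among the 6, 3 lay below the lower quartile of levels, where 1.74% of all genes were higher. The rise was in HSPB8, the partner of BAG3 in selective autophagy, with 5.94, 6.19 and 6.23 in DMSO and 6.91, 7.25 and 6.90 in BIX01294. It rose by 0.90 ± 0.114 (SE, adjusted p 0.00113) from a control level near the lower quartile of all genes. HSPB1, the widely expressed small heat shock protein, measured 12.72, 12.63 and 12.73 in DMSO and 12.90, 12.88 and 12.82 in BIX01294. Its groups did not overlap, yet the difference of 0.17 ± 0.056 (SE) missed the threshold (adjusted p 0.0592), and it passed after quantile normalization (adjusted p 0.0447) and after centring (adjusted p 0.0294). HSPB3, HSPB6, HSPB7 and HSPB9 had differences between -0.19 and -0.06, none of which passed. Of 4 measured heat shock factors and alpha-crystallins outside the symbol rule, none rose and 1 fell. That was HSF4, a heat shock factor known from the lens, which fell by 0.20 (0.062 SE, adjusted p 0.0486). Its call was lost after quantile normalization (adjusted p 0.0705) and centring (adjusted p 0.0801), and without 5 of the 6 arrays in turn (adjusted p 0.0390 to 0.143 over all 6). The alpha-crystallin CRYAB was dim and differed by 0.08 ± 0.127 (SE, adjusted p 0.703).

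The mitochondrial members had a median difference of -0.07: of 10 measured, 2 rose, 1 fell and 7 did not pass. For comparison, 12.9% of all genes were higher and 10.7% lower. Among genes above the median level the shares were 22.5% and 14.8%, and the median level of this list was 9.72. HSPD1 and HSPE1 form the chaperonin of the matrix, and their genes are neighbours. HSPD1 measured 12.78, 12.80 and 12.79 in DMSO and 12.93, 12.86 and 12.995 in BIX01294, groups without overlap, but the difference of 0.14 ± 0.056 (SE) did not pass (adjusted p 0.120). HSPD1 passed in the fit of genes above the median level (adjusted p 0.0376) and with limma's trend and robust variance options (adjusted p 0.00552). HSPE1 measured 10.50, 10.55 and 10.48 in DMSO and 10.76, 10.70 and 10.68 in BIX01294, and rose by 0.20 ± 0.054 (SE, adjusted p 0.0278). The call of HSPE1 was lost whichever single array was left out, DMSO or BIX01294 (adjusted p 0.0532 to 0.0880), and with the replicate number as a block (adjusted p 0.0624).

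HSPA9, the HSP70 of mitochondria that pulls proteins through the import channel, measured 12.25, 12.26 and 12.19 in DMSO and 12.30, 12.25 and 12.26 in BIX01294. The difference was 0.04 ± 0.052 (SE) with a 95% interval of -0.08 to 0.16 (adjusted p 0.648), and it was -0.01 after quantile normalization. DNAJC11, found with the complex that shapes the inner membrane, measured 9.49, 9.52 and 9.40 in DMSO and 9.80, 9.78 and 9.71 in BIX01294, and rose by 0.30 ± 0.058 (SE, adjusted p 0.00766). DNAJC28 measured 6.05, 5.99 and 6.08 in DMSO and 4.97, 4.92 and 5.11 in BIX01294, groups without overlap, and was called lower (adjusted p 5.20e-05). Its mean over the arrays lay below the lower quartile of all genes and the files give no detection call, so the size of the fall is not given. DNAJA3, DNAJC4, DNAJC15, DNAJC19 and DNAJC30 had differences from -0.09 to -0.07 and did not pass. DNAJC19, of the import motor, has a second, dimmer row that fell by 0.31 (adjusted p 0.0222 in the fit of all rows).

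**Figure D4:**
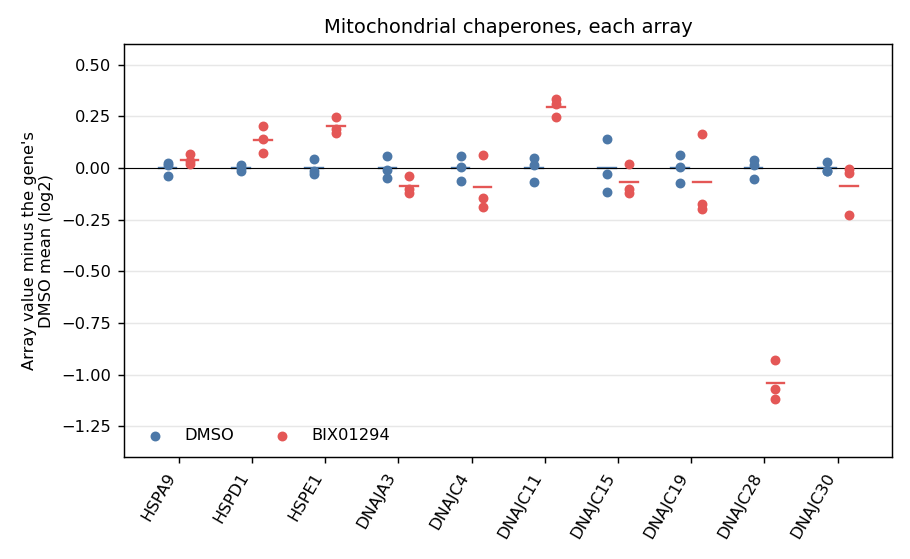
Each array's value minus the gene's DMSO mean (log2, y axis) for the 10 mitochondrial members (x axis), with DMSO in blue, BIX01294 in red and a bar at each group's mean. The red and blue points of HSPA9, DNAJC4, DNAJC15 and DNAJC19 mix, DNAJC11 and HSPE1 lie apart upwards, and DNAJC28 lies apart downwards.

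Other mitochondrial chaperones and proteases, given from a fixed list outside the symbol rule, moved both ways. Of 13 measured, 2 rose and 4 fell, with a median of -0.04. The shares were 15.4% higher and 30.8% lower, against 12.9% and 10.7% of all genes. GRPEL2 and GRPEL1 are the nucleotide exchange factors of HSPA9, and GRPEL2 fell by 0.74 (0.058 SE, adjusted p 0.000133) while GRPEL1 rose by 0.34 ± 0.063 (SE, adjusted p 0.00654). PMPCB, a subunit of the protease that removes import signals, fell by 0.42 (0.068 SE, adjusted p 0.00340), and LONP1, a protease of misfolded matrix proteins, fell by 0.35 (0.062 SE, adjusted p 0.00502). Of all genes above the median level 22.5% were higher and 14.8% lower. The endoplasmic reticulum chaperones left out by the rule, all above that level, had 6 rises and no fall among 9 measured, with a median of 0.37. The largest were HSPA5, the HSP70 of that compartment, with 0.93 ± 0.056 (SE, adjusted p 4.21e-05), and its J-domain partners DNAJB11 with 0.87 ± 0.079 (SE, adjusted p 0.000266) and DNAJC3 with 0.81 ± 0.092 (SE, adjusted p 0.000674).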

How the data were processed

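RNA of 6 BE(2)-C samples was measured on Affymetrix gene arrays. The deposited values are on a log2 scale, 1 per transcript cluster and array, as read from the values (1.93 to 14.93, array medians 6.94 to 7.01). Partek is the one tool named, per the submitters' processing notes; the sources used here do not give the background correction, the normalization or the summarization.

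Of 32321 rows, 19158 had 1 symbol in the platform annotation, 1388 several and 11775 none in the table used. For each of 18404 genes the single-symbol row with the highest mean went, without further scaling, into limma 3.58.1 (R 4.3.3): treatment as the only term, empirical Bayes, two-sided, Benjamini-Hochberg over all genes, threshold 0.05, no filter on dim genes. Tested on simulated data for this comparison over 18404 genes, the fit found 69.3% of the log2 changes of size 0.5 and 95.7% of those of size 1. The simulation changed a much smaller share of genes than the 23.6% called in the data. The adjusted threshold depends on that share, so these percentages may not hold for the data. All 77 members matched RefSeq's GRCh38.p14 gene table by identifier.

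Members and lists were chosen with earlier results of these data known. Named are HSF1, HSPH1, DNAJB1, BAG3, the lists of inducible chaperones with close relatives and of mitochondrial members, up to 10 largest rises and 10 falls without overlap, and up to 3 genes past the threshold per outside list. BAG1, DNAJB2, DNAJB6, DNAJC2, HSPA4, HSPA14, other small heat shock and BAG members, CRYAB, TH, GATA3, ISL1 and GRPEL1 were chosen after their values were seen. Alternatives were other scalings, filters, rows per gene, variance models, the replicate block, a minimum change and leaving out each array. The number of arrays limits the precision. There is no detection call.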

Additional observations from a re-analysis of the deposited data

Results flagged for a closer look

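Signals in rows that the main comparison does not use were above the DMSO arrays in the 2 rows shared by HSPA1A and HSPA1B, with differences of 1.37 and 0.87. The second row of DNAJC19, also outside the main comparison, was lower than in DMSO, with a difference of -0.31.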

How the results depend on the processing

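The members called higher numbered 16 to 22 and those called lower 3 to 4 when single arrays were left out, against 20 and 4. With a minimum log2 change of 0.5 (limma's treat) 2 members were higher and 1 lower. In the other alternatives 18 to 27 were higher and 3 to 5 lower, the former range running from the fit of all rows to the fit of genes above the median level, in which 50 members were tested. With the 11 pseudogenes left out 19 were higher and 4 lower. The fit of all rows and the count without pseudogenes were added after seeing the data. With the replicate number as a block 19 members were higher and 5 lower. The labels do not say whether a replicate number marks a shared culture. Same-numbered arrays deviated from their group means with correlations of 0.19, -0.18 and 0.05. With 3 arrays per group the deviations constrain each other, so these values cannot decide whether the numbers pair the samples. Of the 24 members called, 18 stayed called wherever an alternative included them, apart from the minimum change, and 19 kept it without each array in turn. DNAJC28 was left out by both filters on dim genes, and HSPB8, HSP90AA4P and DNAJC22 by the filter at the median. Alternatives were followed gene by gene for 36 members, those called and those of the naming rule, and not for DNAJB2, BAG4, BAG5, BAG6, HSPB3, HSPB6, HSPB7 and HSPB9. Sign changes among the 36 were in members that did not pass: HSPA6 ran from -0.0227 to 0.156 when single arrays were left out, below 0 without DMSO replicate 1 (-0.0227) or BIX01294 replicate 2 (-0.0118), DNAJC15 ran from -0.125 to 0.0023, above 0 without DMSO replicate 3, and HSPA9 was at -0.0093 after quantile normalization. The cause was not tested.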
